A study of Mus musculus with 30 samples.

Results

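The regions described here carried an H3K4me1 peak 6 h after activation of a full-length E2A fusion protein and none after 6 h of a truncated form that lacks both activation domains. They were chosen by their measured peaks: 5433 of the 11169 H3K4me1 peaks in E2A-/- cells with E47-ER at 6 h overlapped no peak of the list from E2A-/- cells with bHLH-ER at 6 h. They are called E47-ER-only regions below. The other 5736 peaks of the same list, which did overlap a bHLH-ER peak by 1 base or more, are called shared regions, and 11410 of the 17146 bHLH-ER peaks that overlapped no E47-ER 6 h peak are called bHLH-ER-only regions.

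E2A, encoded by Tcf3, is a basic helix-loop-helix (bHLH) protein that binds E-box sites and is required for the start of the B lineage. Its amino-terminal activation domains recruit histone-modifying complexes, whereas the bHLH domain alone mediates dimerization and DNA binding. H3K4me1, monomethylation of lysine 4 of histone H3, marks enhancers and is often laid down before or together with enhancer activity, and H3K4me2 marks both enhancers and promoters.

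E2A-/- hematopoietic progenitors arrested at the pre-pro-B stage, from C57BL/6 mice, were grown on S17 stromal cells with IL7, SCF and FLT3 ligand. They were transduced with a retrovirus encoding E47-ER, full-length E2A joined to the ligand-binding domain of the estrogen receptor, or bHLH-ER, the truncated protein joined to the same domain. After 21 h of culture tamoxifen was added at 1 µM for 1 h or 6 h, and cells carrying the virus were enriched magnetically through the human CD25 on its second cistron. H3K4me1 was profiled at 1 h and 6 h of E47-ER and at 6 h of bHLH-ER, and the bound fusion protein at 1 h and 6 h of E47-ER. The same H3K4me1 pair, and E47-ER binding at 6 h, were measured in A12, an E2A-/- T cell line grown in RPMI, after the same transduction. The series also covered EBF-/- pre-pro-B cells, grown like the E2A-/- cells and carrying no transgene, and RAG1-/- pro-B cells, which were selected from marrow by B220 and kept for 10 days in IL-7 plus SCF, without stroma being named. In each comparison of RAG1-/- with other cells the effects of genotype and of culture cannot be told apart. RNA of E2A-/-, EBF-/- and RAG1-/- cells was measured in 2 samples each.

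Each peak list came from 1 library, so no difference between lists has a replicate check and no test over samples was possible for any share of regions. Shares are given with 95% Wilson intervals, which cover counting error only and treat neighbouring regions as independent. A list of E2A-/- cells without a fusion protein was not analysed here, so whether a region carried H3K4me1 before tamoxifen is not known from these lists. The deposited lists give each peak a position on the mm8 build, a fixed width (1000 bases for histone marks and 200 bases for E2A or E47-ER) and a whole-number score whose scaling is not stated. Read totals of the libraries were not used here. The lists differed in size, with 11169 H3K4me1 peaks at 6 h of E47-ER, 18155 at 1 h of E47-ER, 17146 at 6 h of bHLH-ER, 7544 in EBF-/- cells and 23054 in RAG1-/- cells.

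The label of these regions, H3K4me1 that needs the activation domains, was first set against the lists themselves. The loss was not in 1 direction: 48.6% of the E47-ER 6 h peaks lacked a bHLH-ER peak, and 66.5% of the bHLH-ER peaks lacked an E47-ER 6 h peak. Such shares depend on the lengths of the lists, 11169 peaks at 6 h of E47-ER, 18155 at 1 h and 17146 with bHLH-ER. A longer list leaves more of its own peaks without a partner in a shorter one. How closely the lists matched is therefore not ranked here. Of the E47-ER 6 h peaks, 54.6% (53.7 to 55.5) overlapped a peak of the 1 h E47-ER list, against 51.4% (50.4 to 52.3) for the bHLH-ER list. Of the 1 h E47-ER peaks, in turn, 33.6% (32.9 to 34.3) overlapped a 6 h E47-ER peak and 51.4% (50.7 to 52.1) a bHLH-ER peak. Of the bHLH-ER peaks, 54.4% (53.7 to 55.2) overlapped a 1 h E47-ER peak and 33.5% (32.8 to 34.2) a 6 h E47-ER peak. From the 2 lists alone, a region that depends on the activation domains cannot be told apart from a region called in 1 library and not in the other, so the regions are named by the rule.

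The E47-ER-only regions scored little below the shared regions except at the top, with quartiles of 13 and 21 against 14 and 22. Their H3K4me1 scores had a median of 16 and ran from 12, the lowest score of the list, to 56, and shared regions had a median of 17 and a highest score of 132. In the shared regions the bHLH-ER peak had a median score of 25, and it was above the E47-ER score in 85.2% (84.3 to 86.1) of them. The scale of the scores may differ between lists. The share of peaks that were E47-ER-only was 55.8% among peaks with scores of 12 or 13, 49.0% for 14 to 16, 46.3% for 17 to 20, 44.5% for 21 to 29 and 44.6% for 30 or more. The share was highest among the weakest peaks and stayed above 44% among the strongest.

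The regions were seldom just outside a bHLH-ER peak. Their gap to the nearest one had a median of 17522 bases, with quartiles of 8254 and 37239 bases, and 270 lay within 1000 bases. The 5 regions closest to a bHLH-ER peak had gaps of 0 to 3 bases and scores of 14 to 41, and the 5 excluded peaks with the least overlap shared 2 to 8 bases with one and had scores of 12 to 28. Each chromosome contributed, with 42.9% of the peaks on chromosome 18 and 59.3% of those on the X chromosome being E47-ER-only, the lowest and highest shares.

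The 10 regions with the highest score show how differently supported the members were. The first, at chr7:80329366-80330365 (score 56), lay 0.966 kb from the probe of Blm, a DNA helicase, and overlapped no peak of E47-ER and no other H3K4me1 list. It did overlap an H3K4me2 peak of EBF-/- cells. The fourth, at chr7:126925755-126926754 (score 50), lay 0.416 kb from the probe of Spn, the leukocyte surface protein CD43, and also had no E47-ER peak and no other H3K4me1 peak. By contrast, chr7:113950968-113951967 (score 52), 55.9 kb from the probe of Copb1, held E47-ER peaks at 1 h (score 25) and 6 h (score 21) and an H3K4me1 peak in RAG1-/- cells (score 67). The region chr11:77978215-77979214 (score 47), 3.08 kb from the probe of Traf4, held E47-ER at 1 h (score 51) and at 6 h (score 28) and RAG1-/- H3K4me1 (score 43). The region chr7:123121216-123122215 (score 49), nearest to Lcmt1, was the only one of the 10 with E47-ER at both times and H3K4me1 at 1 h (score 46). Among the 10, 4 held E47-ER at both times, 2 at 1 h only, and 4 at neither time; 6 lay on chromosome 7.

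At 1 h, most of the regions had no H3K4me1 peak. A 1 h E47-ER peak overlapped 1866 of the 5433 regions, 34.3% (33.1 to 35.6), against 73.8% (72.6 to 74.9) of shared regions and a background of 54.6% over all E47-ER 6 h peaks. E47-ER-only regions were chosen for lacking a peak in a second H3K4me1 list, that of bHLH-ER, and shared regions for having one. Comparing these sets in other H3K4me1 and H3K4me2 lists, here and below, is therefore not independent of that choice. The bHLH-ER-only regions, which have no E47-ER peak at 6 h, overlapped a 1 h E47-ER peak more often than E47-ER-only regions, at 44.6%. The gap between E47-ER-only and shared regions was present at every score: over the 5 score bands it ran from 27.6% to 36.9% of E47-ER-only regions and from 69.5% to 76.6% of shared regions. The 3567 regions without a 1 h peak had a median score of 16 and the 1866 with one a median of 17.

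**Figure D1:**
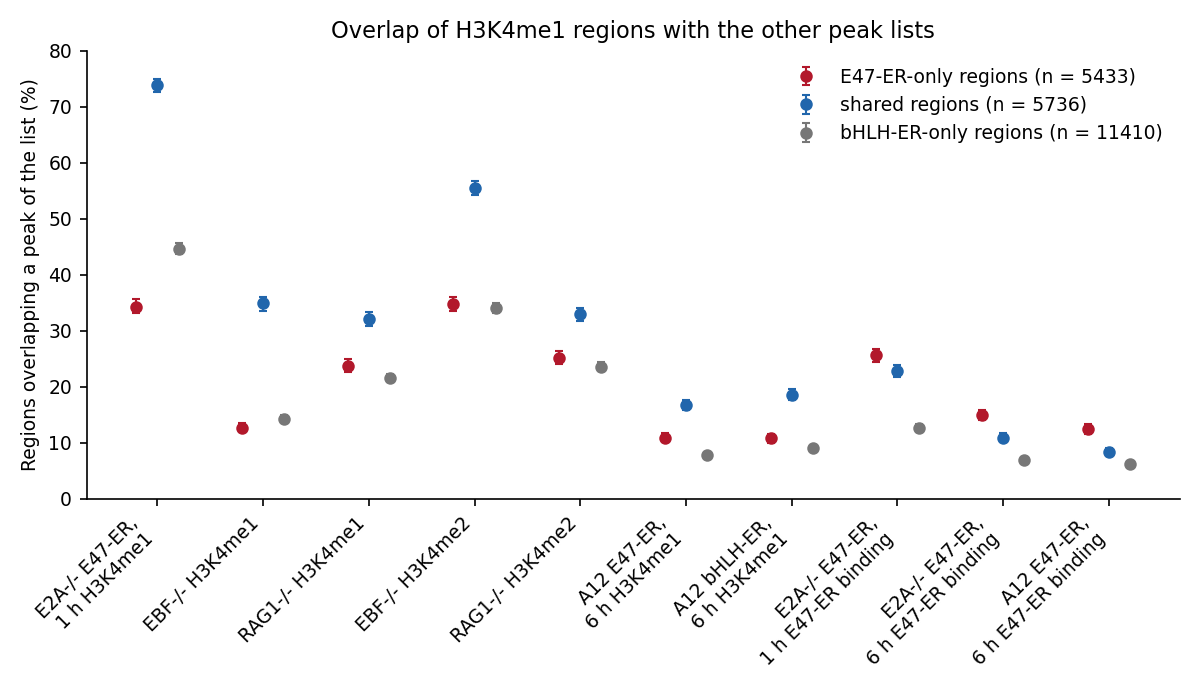
Share of regions (%, vertical axis) that overlap a peak of each list on the horizontal axis, for 5433 E47-ER-only, 5736 shared and 11410 bHLH-ER-only regions; points are shares and bars are 95% Wilson intervals. E47-ER-only regions lie below shared regions for every H3K4me1 and H3K4me2 list, and above them for the 3 lists of E47-ER binding on the right. Shared regions were chosen for a peak in a second H3K4me1 list, that of bHLH-ER.

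Binding of E47-ER was found at a minority of the regions, and more often than at shared regions. At 1 h, 1390 of the regions held an E47-ER peak, 25.6% (24.4 to 26.8), against 22.8% of shared regions and a background of 24.2%. At 6 h it was 812 regions, 14.9% (14.0 to 15.9), against 10.9% of shared regions, 6.99% of bHLH-ER-only regions and a background of 12.8%. The 1 h list was the longer one, with 26792 peaks against 15386 at 6 h. Seen from the factor, 823 of the 15386 E47-ER peaks at 6 h, 5.35%, overlapped an E47-ER-only region, so the great majority of bound sites lay outside them.

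The difference in binding depended on the strength of the mark. Among regions with scores of 12 or 13, 10.3% (8.77 to 12.0) of E47-ER-only and 3.62% (2.67 to 4.89) of shared regions held E47-ER at 6 h. With scores of 21 to 29 the shares were 20.5% (18.2 to 23.0) and 17.7% (15.8 to 19.9). With scores of 30 or more the order turned, to 24.7% of 275 E47-ER-only regions and 33.0% of 342 shared regions, with intervals that overlap. In both sets the stronger marks were the more often bound.

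**Figure D2:**
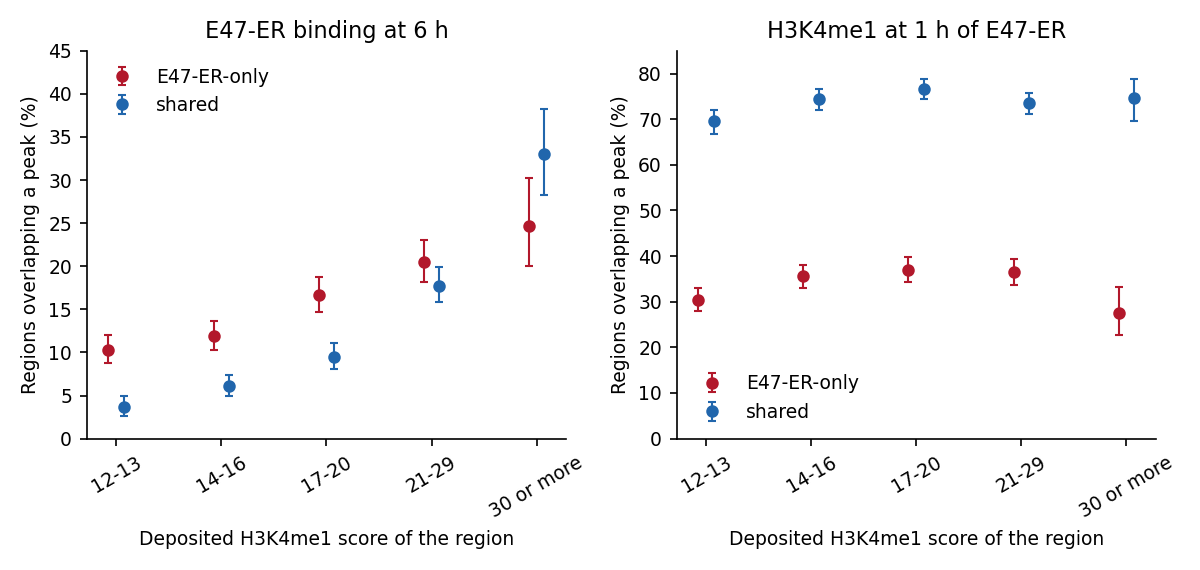
Share of regions (%, vertical axes) with an E47-ER peak at 6 h (left) or an H3K4me1 peak at 1 h of E47-ER (right), by the deposited H3K4me1 score of the region (horizontal axes); points are shares and bars 95% Wilson intervals. Binding rises with the score in both sets and its order turns in the highest band, while the 1 h H3K4me1 share stays lower in E47-ER-only regions in every band.

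Nearest E47-ER peaks were densest at the centre of the regions and thinned out gradually. The nearest 6 h E47-ER peak centre lay within 1000 bases of the region's centre for 19.2% of E47-ER-only, 14.4% of shared and 8.76% of bHLH-ER-only regions. Within the first 100 bases there were 36.4 such peaks per 1000 E47-ER-only regions, against 16.6 from 600 to 700 bases and 5.15 from 900 to 1000 bases. Of the regions that overlapped a 6 h peak, the median distance between the centres was 219 bases, against 249 bases in shared and 207 bases in bHLH-ER-only regions. Overlap itself keeps that distance under 600 bases, so these medians alone do not show a central position.

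**Figure D3:**
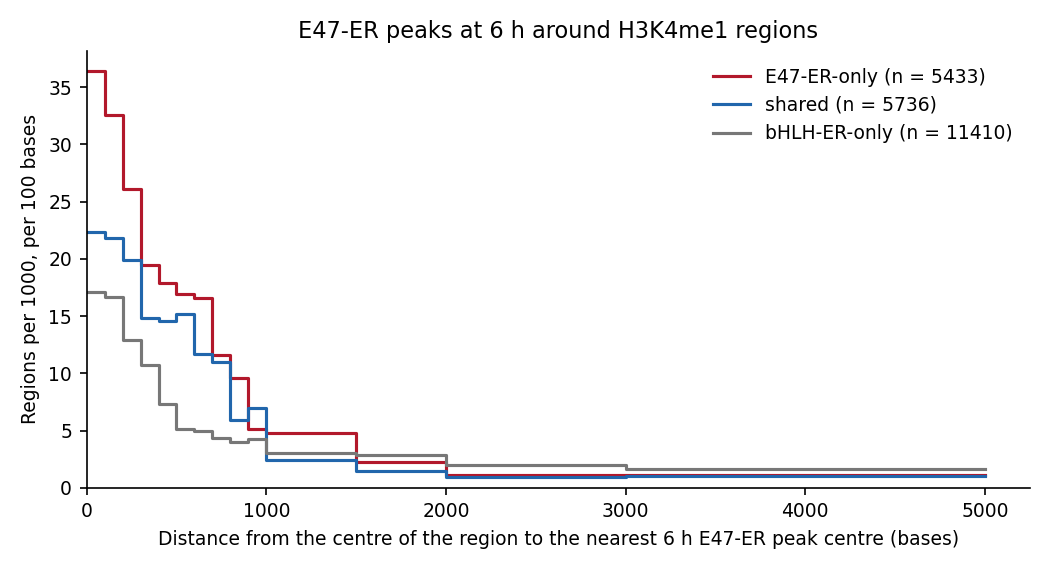
Regions per 1000, per 100 bases (vertical axis), by the distance in bases from the region's centre to the nearest 6 h E47-ER peak centre (horizontal axis), for the 3 sets of regions. The lines fall from the centre outward, E47-ER-only regions start highest, at 36.4, and beyond 2000 bases all 3 lines are low.

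Binding at the 2 times sorted the regions into unequal classes. E47-ER was present at 1 h and 6 h in 720 regions (13.3%), at 1 h only in 670 (12.3%), at 6 h only in 92 (1.69%) and at neither time in 3951 (72.7%). H3K4me1 at 1 h was no more frequent where the factor was bound at both times, 32.4% (233 of 720), than where it was not bound, 34.1% (1349 of 3951); it was 39.9% in the class bound at 1 h only. The classes differed more in where else E2A was found. An E2A peak in RAG1-/- pro-B cells overlapped 21.1% of the regions bound at both times and 5.06% of the unbound regions, and for EBF-/- cells the shares were 12.6% and 1.06%. E47-ER in A12 T cells was present in 49.0% of the regions bound at both times, 23.0% of those bound at 1 h only and 3.77% of the unbound ones.

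The regions whose mark was absent at 1 h and whose factor was bound at 6 h form a smaller class. There were 562 of them, 10.3% (9.56 to 11.2) of the E47-ER-only regions, against 171, or 2.98% (2.57 to 3.45), of the shared regions. This difference includes the gap at 1 h, since 65.7% of E47-ER-only and 26.2% of shared regions lacked the 1 h mark. Among the regions without that mark, 15.8% and 11.4% were bound at 6 h. They were poor in marks of the other progenitors. An EBF-/- H3K4me2 peak overlapped 18.7% (15.7 to 22.1) of the 562, against 55.6% (48.1 to 62.8) of the 171 shared regions of the same kind, and EBF-/- H3K4me1 overlapped 8.54% against 28.7%. RAG1-/- H3K4me1 overlapped 17.8% (14.9 to 21.2) against 32.7% (26.2 to 40.1). E47-ER bound 47.9% of the 562 in A12 cells as well, while A12 H3K4me1 with E47-ER was present at 18.0% of them and with bHLH-ER at 14.8%.

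In EBF-/- and RAG1-/- cells, which carry no fusion protein, the regions were marked less often than shared regions. Shared regions were chosen for a peak in a second H3K4me1 list, so this comparison is not independent of the choice. EBF-/- cells, which have E2A and by their label lack the B-lineage factor EBF1, had H3K4me1 at 692 regions, 12.7%, against 34.9% of shared regions and a background of 24.1%. RAG1-/- cells, which are committed pro-B cells that cannot recombine their antigen receptor genes, had it at 1289 regions, 23.7%, against 32.1% and a background of 28.0%. The RAG1-/- list holds 23054 peaks and the EBF-/- list 7544, so the shares of the 2 genotypes are not compared with each other. H3K4me2 followed the same order. It was present at 34.7% of the regions in EBF-/- cells, against 55.5% of shared regions and a background of 45.4%, and at 25.1% in RAG1-/- cells, against 32.9% and a background of 29.1%. The bHLH-ER-only regions were near the E47-ER-only ones. They had H3K4me1 at 14.3% in EBF-/- and 21.5% in RAG1-/- cells, and H3K4me2 at 34.0% and 23.6%.

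Most regions were in neither H3K4me1 list. H3K4me1 was found in RAG1-/- cells only at 1000 regions (18.4%), in EBF-/- cells only at 403 (7.42%), in both at 289 (5.32%) and in neither at 3741 (68.9%). In shared regions 47.3% were in neither. Where RAG1-/- cells carried the mark and EBF-/- cells did not, an E2A peak of RAG1-/- cells was present at 20.7% (207 of 1000), and it was present at 20.8% where both carried it. It was present at 4.49% of the regions with the mark in neither and at 5.46% of those with the mark in EBF-/- cells only. Shared regions ran the same way, at 17.1%, 20.2%, 4.27% and 4.31% in these classes. The binding of the fusion protein itself did not follow these classes: E47-ER at 6 h was present at 12.5% of the RAG1-/- only class and 15.9% of the class in neither. EBF1 and FOXO1, the other B-lineage factors profiled in RAG1-/- cells, overlapped 33 (0.607%) and 46 (0.847%) of the regions, with 1402 and 1575 peaks in their lists. These shares are near those of all E47-ER 6 h peaks, 0.707% and 0.797%.

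**Figure D4:**
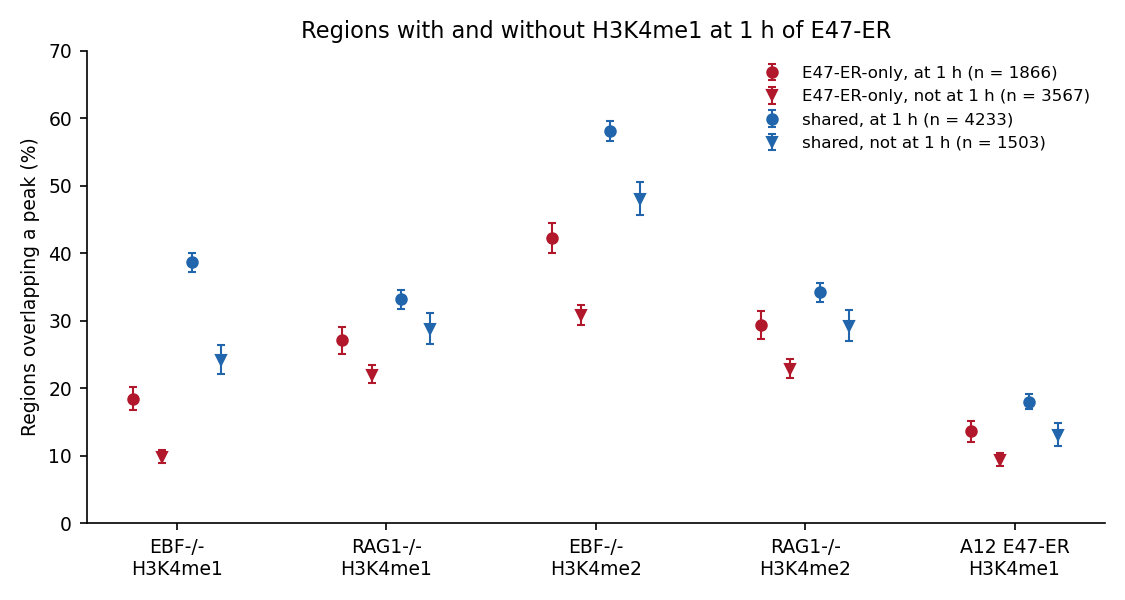
Share of regions (%, vertical axis) that overlap an H3K4me1 or H3K4me2 peak of EBF-/- or RAG1-/- cells or an H3K4me1 peak of A12 cells with E47-ER, for E47-ER-only and shared regions with (circles) and without (triangles) H3K4me1 at 1 h; bars are 95% Wilson intervals. In each of the 5 lists the regions without the 1 h mark lie lower within both sets, and the E47-ER-only regions without it are the lowest of the 4 classes, for example 9.78% against 24.2% in EBF-/- H3K4me1.

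The mark at 1 h went with the mark in the other cells. Of the 1866 regions with H3K4me1 at 1 h, 18.4% (16.7 to 20.2) had it in EBF-/- cells, against 9.78% (8.85 to 10.8) of the 3567 without. For RAG1-/- cells the shares were 27.1% (25.1 to 29.1) and 22.0% (20.7 to 23.4), and for EBF-/- H3K4me2 they were 42.2% and 30.8%. Binding did not run the same way: E47-ER at 6 h was present at 13.4% of the regions with the 1 h mark and at 15.8% of those without it.

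H3K4me3 and H3K27me3 were found at few E47-ER-only and few shared regions. H3K4me3, the mark of active promoters, was present at 5.54% (4.96 to 6.18) of E47-ER-only regions in EBF-/- cells and 8.36% in RAG1-/- cells. In shared regions the shares were 4.03% (3.55 to 4.57) and 8.07%. Acetylation of H3 at lysines 9 and 14 was found at 13.3% (12.4 to 14.2) of E47-ER-only regions in EBF-/- and 9.39% in RAG1-/- cells. In shared regions it was found at 17.5% (16.5 to 18.5) and 10.2%. H3K27me3, the Polycomb mark, touched 9 regions (0.166%) in EBF-/- and 32 (0.589%) in RAG1-/- cells. These shares are near those of all E47-ER 6 h peaks, 0.197% and 0.627%, and the lists hold only 1311 and 2130 peaks. CTCF, which binds insulators and loop anchors, was present at 7.49% of E47-ER-only and 7.95% of shared regions. The mock precipitation, the control list of the series, overlapped 3 regions (0.0552%), against 0.0806% of all E47-ER 6 h peaks.

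The A12 line allowed the same comparison of the fusion proteins in another E2A-/- cell. With E47-ER, A12 H3K4me1 was present at 590 of the regions, 10.9%, against 16.7% of shared regions and a background of 13.9%. With bHLH-ER it was present at 586, 10.8%, against 18.6% and a background of 14.8%. Of the 590 regions with the mark under E47-ER, 284 had no A12 bHLH-ER peak, 48.1% (44.1 to 52.2). In shared regions the same share was 31.7% (28.8 to 34.7), and over all E47-ER 6 h peaks it was 37.9%. A nearly equal number of regions, 280, had the mark in A12 under bHLH-ER and not under E47-ER. E47-ER binding in A12 was present at 28.8% of the 306 regions with the mark in both A12 lists, at 27.5% of the 284, at 19.6% of the 280 and at 10.0% of the 4563 regions with the mark in neither A12 list. The 2 A12 lists overlapped each other at 52.2% of the E47-ER and 45.7% of the bHLH-ER peaks. The pair in E2A-/- cells did so at 51.4% and 33.5%. These shares depend on the lengths of the lists, 10185 and 11624 peaks in A12 and 11169 and 17146 in E2A-/- cells.

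Over the other 21 lists together, 1036 regions (19.1%, 18.0 to 20.1) overlapped no peak of any, against 5.72% of shared regions. Of the E47-ER-only regions 41.2% were in none of the other 5 H3K4me1 lists, against 12.4% of shared regions, and 7.88% were in 3 or more of them, against 24.3%. At the other end, 6 regions held E47-ER at both times, H3K4me1 at 1 h, and both E2A and H3K4me1 in EBF-/- and in RAG1-/- cells. The 6 were picked after their values were seen. The same count was not made for shared regions, so it does not show how the sets differ. The strongest of the 6, chr5:107612888-107613887 (score 28), lay 4.87 kb from the probe of Brdt, had H3K4me1 scores of 36 in EBF-/- and 21 in RAG1-/- cells, and was also bound in A12. The region chr6:115683272-115684271 (score 19), 11.1 kb from the probe of Tmem40, and chr1:133775105-133776104 (score 16), 11.9 kb from the probe of Nucks1, were 2 others, both with CTCF.

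The genes next to the regions were taken from the mm8 positions of the array's probes, which mostly lie inside transcripts and not at their starts. A named probe lay within 100 kb of 4913 regions (90.4%), at a median of 19.2 kb over all regions, and these had 3849 different nearest genes. Shared regions gave 4030 genes, and 1338 genes belonged to both sets, 34.8% and 33.2% of them. RNA was measured on 2-colour Agilent arrays with every sample read from its own channel, and differences between genotypes are limma estimates on the log2 scale with standard errors and Benjamini-Hochberg adjusted p-values over all 12420 genes tested. Of the 3849 genes, 2964 passed the filter on dim probes, which keeps a gene that is above background in only 1 genotype. The labels do not say whether the 2 samples of a genotype came from separate cultures, so the p-values measure the spread between these samples only. No RNA of cells with a fusion protein was analysed here, so these values describe the genotypes and not the response to E47-ER.

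In each comparison of genotypes below, more of the nearest genes than of all genes were called lower, next to shared regions as well. The shares called higher were near those of all genes. In EBF-/- against E2A-/- cells 410 of the 2964 genes (13.8%) were higher and 414 (14.0%) lower, against backgrounds of 12.9% and 11.7%. In RAG1-/- against E2A-/- cells 636 (21.5%) were higher and 850 (28.7%) lower, against 23.2% and 23.3%. In RAG1-/- against EBF-/- cells 581 (19.6%) were higher and 792 (26.7%) lower, against 21.4% and 22.8%. The first of these counts, 824 in all, rests on few samples: limma called 165 without EBF-/- replicate 1, 113 without EBF-/- replicate 2, 324 and 328 without E2A-/- replicates 1 and 2, and 1373 and 1376 without RAG1-/- replicates 1 and 2. The second, 1486, was 867 without E2A-/- replicate 2, and the third, 1373, was 610 and 656 without EBF-/- replicates 1 and 2. The median differences were -0.01, -0.06 and -0.04, beside -0.01, 0.03 and 0.04 over all genes. Genes next to shared regions had a similar lean. In RAG1-/- cells 22.0% of them were higher and 27.8% lower than in E2A-/- cells, and in EBF-/- cells 14.3% were lower than in E2A-/- cells. Among the 719 genes nearest to a region bound by E47-ER at 6 h, 551 were tested and 22.5% were higher and 28.7% lower in RAG1-/- than in E2A-/- cells.

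The samples were checked with the targeted genes and with markers before single genes were read. Tcf3 was at 10.80 and 9.44 in E2A-/- cells, below 13.41 and 13.39 in EBF-/- and 14.99 and 14.70 in RAG1-/- cells. Ebf1 was at 10.86 and 10.89 in the samples labelled EBF-/-, above 6.94 and 5.39 in E2A-/- cells and below 12.56 and 12.39 in RAG1-/- cells, and Rag1 was at 10.54 and 11.12 in RAG1-/- cells. The sources used here do not say which exons each allele removes, so a probe outside them would stay lit and the Ebf1 and Rag1 levels do not check the labels. The B-lineage markers Cd79a, Cd79b, Vpreb1, Igll1, Pax5 and Ebf1 were high in both RAG1-/- samples, with log2 summed signals of 19.31 and 19.06, and lower in EBF-/- samples, at 11.44 and 11.41, or 9.87 and 9.66 without Ebf1. The E2A-/- samples stood apart from each other, at 13.34 in replicate 1 and 10.08 in replicate 2, and all 6 markers were higher in replicate 1, which was hybridised on the same array as a RAG1-/- sample. In EBF-/- cells the T-lineage markers summed to 15.10 and 15.02 (4 of 5 tested), against 10.78 and 11.49 in E2A-/- and 13.45 and 13.51 in RAG1-/- cells. Thy1 and Lck were the brightest of the 4, and Cd3e did not follow, at 8.10 and 6.42 in EBF-/- and 7.17 and 8.28 in E2A-/- cells. The stromal marker Pdgfrb was at 12.96 and 12.75 in EBF-/- and at 7.72 and 8.06 in E2A-/- cells, while Col1a2, the other stromal gene tested, was between 6.30 and 7.69 in all 6 samples. The myeloid markers summed to 11.67 and 15.55 in RAG1-/- cells, below 16.34 and 16.43 in the E2A-/- samples, and EBF-/- cells were at 15.04 and 15.11. The part of these differences in the gene values below was not tested, and fewer cells of a type and less RNA per cell cannot be told apart.

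Of all 12420 genes tested, 23.9% were nearest to an E47-ER-only region and 24.3% to a shared one, and the counts of the lists are given as descriptions beside these shares, with no test. Nearest to an E47-ER-only region were 3 of 18 B-lineage factors, 3 of 21 genes of the pre-B receptor and B cell surface, and 1 of 12 genes of V(D)J recombination. Shared regions were nearest to 6, 5 and 2 of them. Ikzf3, the Ikaros-family factor Aiolos, had 1 region, 3.77 kb away, and log2 signals of 7.01 and 6.73 in E2A-/- samples, 6.03 and 6.04 in EBF-/- samples, then 8.96 and 8.76 in RAG1-/- cells. The RAG1-/- samples were the highest, 1.99 ± 0.24 (SE) above E2A-/- (limma adjusted p 0.00405). Syk, the kinase that signals from the pre-B receptor, had 1 region, 78.9 kb away, and 1 shared region. It rose from 11.74 and 11.70 in E2A-/- to 12.88 and 13.20 in EBF-/- and 14.05 and 13.70 in RAG1-/- cells. The 3 genotypes did not overlap, with differences of 1.32 ± 0.13 and 2.15 ± 0.13 from E2A-/- (limma adjusted p 0.00548 and 0.000794). Without EBF-/- replicate 2 the first difference did not pass (limma adjusted p 0.0626). Enpep, the BP-1 antigen of pro-B and pre-B cells, had 1 region, 38.8 kb away, and 2 shared regions. It was at 13.48 and 12.78 in RAG1-/- cells, at 5.69 and 2.94 in E2A-/- cells and at 2.94 in both EBF-/- samples. It was at least 169-fold higher in RAG1-/- than in EBF-/- cells, where it was not well above background (limma adjusted p 0.00215). The E2A-/- replicate 2 was at the same level as the EBF-/- samples, so no size is given for the difference from E2A-/- cells (limma adjusted p 0.00268). Such bounds set the brighter group's mean against the lowest signal that is well above background on the dim arrays. Bank1, a B cell scaffold protein, ran the other way, from 8.87 and 8.82 in E2A-/- to 4.36 and 5.11 in RAG1-/- cells (-4.11 ± 0.30, limma adjusted p 0.00121).

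**Figure D5:**
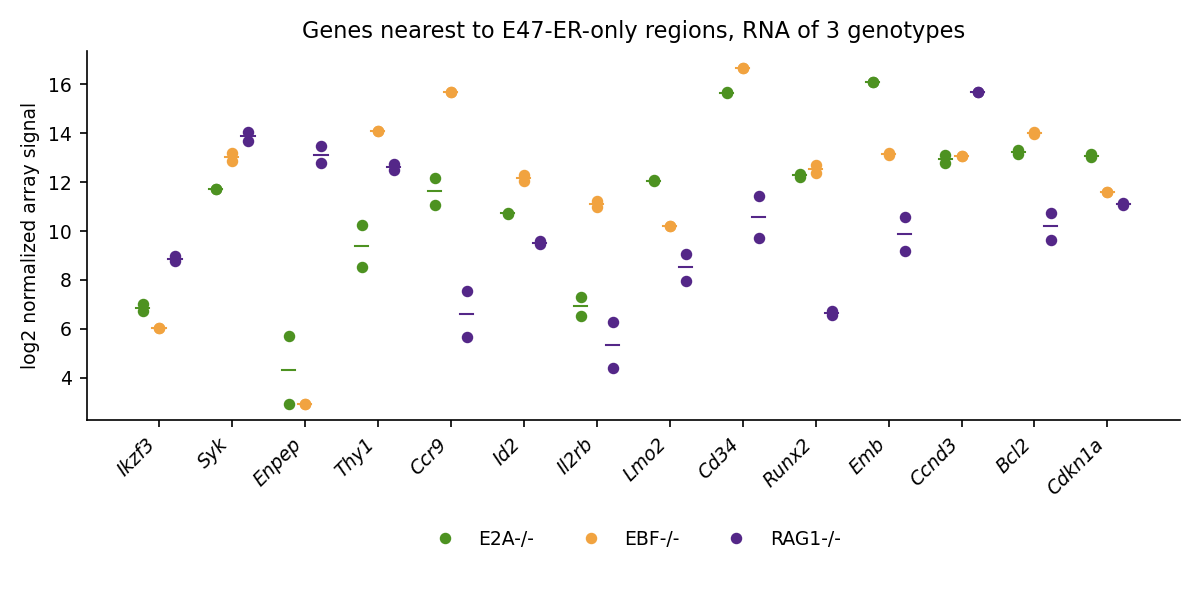
Log2 normalized array signal (vertical axis) of 14 genes nearest to E47-ER-only regions (horizontal axis) in E2A-/-, EBF-/- and RAG1-/- cells; points are the 2 samples of a genotype and the short lines their means. The RAG1-/- samples are highest for Ikzf3, Syk, Enpep and Ccnd3 and lowest for Ccr9, Id2, Il2rb, Lmo2, Cd34, Runx2, Emb, Bcl2 and Cdkn1a.

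Of the E and Id proteins and the Notch pathway 8 of 20 genes were nearest to an E47-ER-only region and 4 of 20 to a shared one, and all 8 were tested. In RAG1-/- against E2A-/- cells 4 of the 8 rose and 4 fell, with a median of -0.09, beside 23.2% and 23.3% of all genes. The 4 that rose were Tcf12, which encodes the E protein HEB, and the Notch pathway genes Hes1, Nrarp and Dtx1. Hes1 had 1 region, 88.1 kb away, and was at 8.10 and 7.89 in RAG1-/- cells. In E2A-/- cells it was not well above background, at least 6.06-fold lower (limma adjusted p 0.00578). Nrarp had 1 region, 18.9 kb away, and was at least 6.43-fold higher in RAG1-/- than in E2A-/- cells (limma adjusted p 0.00167). The Hes1 call was lost without either RAG1-/- sample (limma adjusted p 0.0607 without replicate 1 and 0.0602 without replicate 2). The Tcf12 call, a difference of 0.47 ± 0.09, was lost without E2A-/- replicate 1 (limma adjusted p 0.0786) or replicate 2 (0.124), and without the dye term (0.0597). Id2, which blocks E proteins by dimerizing with them, had 2 regions, 2.28 and 13.5 kb away, with no E47-ER peak in E2A-/- cells, no 1 h mark and no H3K4me1 in EBF-/- or RAG1-/- cells. In A12 cells the first held an E47-ER peak and the second an H3K4me1 peak with E47-ER (score 29) and none with bHLH-ER. Its signals were 10.70 and 10.74 in E2A-/- samples, 12.30 and 12.03 in EBF-/- samples, then 9.45 and 9.58 in RAG1-/- cells. It thus rose by 1.45 ± 0.12 in EBF-/- (limma adjusted p 0.00407) and fell by 1.20 in RAG1-/- cells (SE 0.12, limma adjusted p 0.00233). The rise was 1.34 without EBF-/- replicate 1 and then just missed the threshold (limma adjusted p 0.0518).

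Lmo2, a bridging protein of bHLH complexes in progenitors, had 4 regions between 7.06 and 60.8 kb from its probe, of which 1 carried the mark at 1 h and none held E47-ER. Its signals were 12.03 and 12.07 in E2A-/- samples, 10.22 and 10.20 in EBF-/- samples, then 9.08 and 7.94 in RAG1-/- cells, so the genotypes did not overlap and RAG1-/- was 3.55 below E2A-/- (SE 0.33, limma adjusted p 0.00205). Gfi1, a transcriptional repressor, had a region 0.450 kb from its probe with the mark at 1 h and no E47-ER, and fell by 0.78 in RAG1-/- against E2A-/- cells (SE 0.18, limma adjusted p 0.0275). That call was lost without E2A-/- replicate 1 or 2 or EBF-/- replicate 1 (limma adjusted p 0.0582, 0.156 and 0.0508) and with no filter on dim probes (0.0575).

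Of the progenitor genes 5 of 13 were nearest to an E47-ER-only region and 4 of 13 to a shared one. In RAG1-/- against E2A-/- cells 4 of the 5 fell and 1 rose, with a median of -2.71, beside 23.3% and 23.2% of all genes. The fall was not particular to the nearest genes. Flt3, Hoxa9, Hoxa10 and Ly6a, which had no E47-ER-only region, also fell, while Il7r, likewise without one, rose. Cd34, the surface antigen of stem and progenitor cells, was at 15.70 and 15.63 in E2A-/- samples, 16.69 and 16.67 in EBF-/- samples, then 9.70 and 11.45 in RAG1-/- cells. The fall of 5.09 in RAG1-/- cells (SE 0.47, limma adjusted p 0.00210) was larger than the spread between the samples. Kit, the receptor for SCF, had 3 regions and fell by 2.71 (SE 0.74, limma adjusted p 0.0402), with RAG1-/- samples at 7.05 and 9.71 that stood far apart; without E2A-/- replicate 2 the limma adjusted p was 0.164, and with no filter on dim probes it was 0.0925. Erg, an ETS factor of stem and B cells, had 1 region, 89.0 kb away, and 1 shared region. It rose by 4.62 (SE 0.17, limma adjusted p 0.000383), from 10.21 and 9.56 in E2A-/- to 14.43 and 14.57 in RAG1-/- cells.

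T and NK genes nearest to the regions were highest in EBF-/- cells, where the T-lineage markers were also high. This was not particular to the nearest genes. Lck, Tcf7, Gata3 and Nkg7, which had no E47-ER-only region, were also highest in EBF-/- cells, while Lat and Cd5 were not. Of the T-lineage list 4 of 18 were nearest genes, and 7 of 18 were nearest to a shared region. Of the 4, 3 were tested and 2 of these rose in EBF-/- against E2A-/- cells, beside 12.9% of all genes. Thy1, a surface glycoprotein of T cells and early progenitors, had a region at chr9:43797398-43798397, 0.229 kb from its probe, with E47-ER at both times (scores 9 and 9) and H3K4me1 at 1 h (score 13). Its signals were 8.52 and 10.26 in E2A-/- samples, 14.09 and 14.11 in EBF-/- samples, then 12.51 and 12.73 in RAG1-/- cells. Both genotypes were above E2A-/-, by 4.71 ± 0.52 (limma adjusted p 0.00740) and 3.22 ± 0.52 (limma adjusted p 0.00905). Without EBF-/- replicate 1 the first was 4.34 and missed the threshold (limma adjusted p 0.0531). Ccr9, a chemokine receptor of thymus-seeding progenitors, was at 15.68 and 15.71 in EBF-/-, 11.08 and 12.19 in E2A-/- and 7.53 and 5.65 in RAG1-/- cells, with no overlap between genotypes. Of the NK and cytotoxic list 5 of 11 were nearest genes, and 3 of 11 were nearest to a shared region. Of the 5, 4 were tested and 3 of these rose in EBF-/- cells. Il2rb, a subunit of the IL-2 and IL-15 receptors, had the highest-scoring region of the list (chr15:78320644-78321643, score 34), marked at 1 h (score 45) and without E47-ER. Its signals were 10.97 and 11.22 in EBF-/- and 6.53 and 7.32 in E2A-/- cells, a difference of 4.19 ± 0.69 (limma adjusted p 0.0190). Its call was lost without E2A-/- replicate 1, EBF-/- replicate 1 or EBF-/- replicate 2 (limma adjusted p 0.0622, 0.0918 and 0.130) and with no filter on dim probes (0.0539). The other 2 that rose, Tbx21 and Gzma, were likewise called only with both EBF-/- samples in the fit (limma adjusted p 0.131 and 0.196, and 0.125 and 0.0840, without replicate 1 and 2), and Tbx21 also needed E2A-/- replicate 2 (0.0506).

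Of the FOXO and IL-7 receptor target list 10 of 17 genes were nearest to an E47-ER-only region. Shared regions were nearest to 4 of 17. In RAG1-/- against E2A-/- cells 3 of the 10 rose and 3 fell (median -0.03), beside 23.2% and 23.3% of all genes. The 3 that rose were Ccnd3 and Cdkn1b, which promote and restrain the G1 phase of the cell cycle, and S1pr1, the receptor that lets lymphocytes leave tissues. Ccnd3, with its region 42.0 kb away, was at 15.67 and 15.71 in RAG1-/- cells. In E2A-/- cells it was at 13.10 and 12.79, 2.75 ± 0.10 apart (limma adjusted p 0.000390). S1pr1 had 2 regions, 37.6 and 52.2 kb away, and 1 shared region. Of the 2, chr3:115754795-115755794 (score 14) held E47-ER at 1 h (score 33) and 6 h (score 9) and the mark at 1 h (score 17). S1pr1 rose by 3.71 ± 0.23 (limma adjusted p 0.000892). The 3 that fell were Bcl2, Bcl2l11 and Cdkn1a. Bcl2, which protects from apoptosis, was at 13.15 and 13.31 in E2A-/- samples, 13.97 and 14.05 in EBF-/- samples, then 9.65 and 10.75 in RAG1-/- cells, and fell by 3.02 in RAG1-/- cells (SE 0.34, limma adjusted p 0.00347). Bcl2l11, which encodes the pro-apoptotic protein BIM, had 3 shared regions and a region 4.55 kb from its probe that held E47-ER at 1 h (score 10). It fell by 2.31 (SE 0.09, limma adjusted p 0.000383). Cdkn1a, the cell cycle inhibitor p21, fell in both genotypes, by 1.48 in EBF-/- (SE 0.09, limma adjusted p 0.00281) and by 1.96 in RAG1-/- cells (SE 0.09, limma adjusted p 0.000552). Of the myeloid list 2 of 13 and of the stromal list 0 of 7 genes were nearest to an E47-ER-only region.

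The genes nearest to the most regions had 5 each. Runx2, a RUNX-family factor, had 5 between 1.83 and 88.3 kb from its probe, of which 1 held E47-ER at 1 h only and 1 at 6 h only, 1 was marked at 1 h, 1 carried H3K4me1 in EBF-/- and 3 in RAG1-/- cells; it had no shared region. Its signals were 12.35 and 12.21 in E2A-/- samples, 12.71 and 12.37 in EBF-/- samples, then 6.56 and 6.72 in RAG1-/- cells, a fall of 5.64 (SE 0.11, limma adjusted p 0.000222). Fabp5, a fatty acid binding protein, had 5 regions and 2 shared ones, with 2 of the 5 bound at 6 h and 3 at 1 h, and fell by 3.15 in RAG1-/- cells (SE 0.24, limma adjusted p 0.00136). Psmd12, a proteasome subunit, had 5 regions, with 3 marked at 1 h, and was at 14.66 and 14.81 in RAG1-/- against 14.81 and 14.89 in E2A-/- cells, a difference of -0.12 ± 0.09 that did not pass the test (limma adjusted p 0.341).

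The largest differences among nearest genes were chosen for their size. In EBF-/- against E2A-/- cells Ptprf, a receptor tyrosine phosphatase, was at 13.78 and 13.66 against 5.37 and 7.51, 7.29 ± 0.65 higher (limma adjusted p 0.00483). Its region at chr4:117707537-117708536 (score 25) held E47-ER at 1 h (score 10) and 6 h (score 7) and no 1 h mark. Esm1, a secreted proteoglycan with 1 region and 3 shared regions, was at 12.36 and 12.07 in EBF-/- and 5.79 and 6.02 in E2A-/- cells. Emb, the adhesion protein embigin, had 3 regions and was at 16.10 and 16.09 in E2A-/- samples, 13.19 and 13.11 in EBF-/- samples, then 9.18 and 10.58 in RAG1-/- cells. Its strongest region, chr13:118354738-118355737 (score 30), held E47-ER at both times (scores 12 and 7) and H3K4me1 at 1 h (score 48). Cplx2 had 1 region, 40.8 kb away, and 2 shared regions, and Clgn had 1 region, 1.47 kb away. Cplx2 and Clgn were at 15.29 and 15.56, and at 13.01 and 13.52, in RAG1-/- cells. In E2A-/- cells they were at 10.35 and 3.11, and at 7.67 and 3.36, in each case with the higher value in replicate 1, the sample in which the B-lineage markers were higher.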

How the data were processed

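H3K4me1, factor binding and other marks came as 24 peak lists, 1 library per condition, and RNA as 6 samples on 4 two-colour arrays of 1 slide. Per the submitters' processing notes, HOMER and the mm8 build were used for the ChIP-seq data and Agilent Feature Extraction 9.5.3.1 for the arrays; other upstream steps are not given in the sources used here. The lists are as the authors deposited them, with a whole-number score per peak whose scaling is not stated, and the score was used only within lists or side by side. Array intensities are the processed signals the authors deposited, which per the file headers the scanner software had spatially detrended and dye-normalized, with its global background correction switched off.

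Peaks were intersected with Python 3.11.15 (numpy 2.4.6, pandas 2.3.3), 1 base or more counting as overlap, and the overlap step was tested on simulated intervals. Wilson intervals (statsmodels 0.14.6) are at 95%. Signals of each sample's own channel were put on the log2 scale, quantile normalized, filtered to probes that the scanner software called well above background in both samples of any genotype (22132 of 41099 probes), and fitted with limma 3.58.1 (R 4.3.3) over 12420 genes, 1 probe a gene (the brightest), with dye as a term and array as a random block (correlation -0.028). The fit had 2 residual degrees of freedom and gained 2.50 from the prior. Calls have a Benjamini-Hochberg adjusted p under 0.05. A gene is nearest to a region when its named probe is the closest and lies within 100 kb.

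The members, the gene lists and the tests were chosen with earlier results of these data known. Genes were named where they belonged to the lists and were nearest to a region, among the 10 genes with the most regions, or among the 8 largest called changes in each direction, and the text gives examples of each; some genes of the lists are not reported here and are left out of the lists' counts. No genome of the files' build was used, so region sequences were not analysed here.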

Additional observations from a re-analysis of the deposited data

How the results depend on the processing

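The number of regions was 6077 when at least 50% of a region had to be covered and 5163 when peaks up to 1 kb apart counted as shared, and the shares moved with the rule, which by its construction asks for more or less overlap. With at least 50% of a region covered, the shares of members were 31.4% for H3K4me1 at 1 h, 11.6% and 17.3% for EBF-/- and RAG1-/- H3K4me1, 26.2% and 16.8% for H3K4me2, and 9.0% and 8.95% for A12 E47-ER and bHLH-ER; binding has no value there, since a 200-base peak cannot cover 50% of 1000 bases. With the 1 kb rule they were 36.3% for 1 h H3K4me1, 35.1% and 21.7% for E47-ER binding at 1 h and 6 h, 28.5% for RAG1-/- H3K4me1, 40.4% and 31.6% for EBF-/- and RAG1-/- H3K4me2, and 11.9% and 12.1% in A12. Among the 2616 members at or above the median score they were 35.8%, 32.1% and 19.1% for the 1 h mark and binding at 1 h and 6 h, 16.6% and 25.8% for EBF-/- and RAG1-/- H3K4me1, 42.4% and 27.1% for H3K4me2, and 11.9% and 12.2% in A12; the cause was not tested. Members over 2.5 kb from a bHLH-ER peak (5067), and members without chromosome 7 (5028), were alternatives chosen after seeing the data, and every share stayed within its interval. Called nearby genes ranged from 113 (without EBF-/- replicate 2) to 1376 (without RAG1-/- replicate 2) for EBF-/- against E2A-/- when each sample was left out, from 867 to 1658 for RAG1-/- against E2A-/- and from 610 to 1533 for RAG1-/- against EBF-/-; a lone sample is then assumed to vary like the others. Within 20 kb of a region the counts were 540, 964 and 898, since fewer genes are nearest. The replicate block in place of the dye term gave 798, 1471 and 1341 calls against 824, 1486 and 1373. The difference of replicate 1 from replicate 2 was correlated between genotypes over the genes tested. It gave 0.166 for E2A-/- and RAG1-/-, -0.398 for E2A-/- and EBF-/-, and 0.014 for RAG1-/- and EBF-/-. None was high and positive, so the numbers were not taken to pair the samples. EBF-/- replicate 1 and E2A-/- replicate 2 shared an array, as did replicate 1 of E2A-/- and of RAG1-/-. Without the dye term, with normexp background correction (offset 50), with the 75th percentile, with no filter on dim probes or with the kept probe nearest to the region, each count stayed within 1.5 times its value. Of 64 calls on named genes 40 held under all 11 array settings, 24 were lost under some and none reversed. Without read totals the lists show only presence or absence, and a peak missed in a thinner library reads as absent.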

Other observations

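Chromosome 7 held a large share of the highest-scoring H3K4me1 peaks in the cells that lack E2A. Among the 100 E47-ER-only regions with the highest scores 30 lay on it, and among the 100 highest shared regions 36. Of the E47-ER-only regions on chromosome 7, 54 of 405 (13.3%) had a score of 30 or more, against a median of 4.46% and a highest value of 7.02% over the other chromosomes. The share of peaks that were E47-ER-only was 46.6% on chromosome 7, against 48.6% over the whole list. In whole lists, peaks at or above the 95th percentile of the score made up 16.3% of the chromosome 7 peaks at 6 h of E47-ER, 14.3% at 1 h, 14.1% with bHLH-ER, and 15.6% and 14.3% in A12 with E47-ER and bHLH-ER. The medians over the other 19 chromosomes in these 5 lists ran from 3.95% to 4.80%. In RAG1-/- cells chromosome 7 was at 4.52% and in EBF-/- cells at 8.28%, where the highest other chromosomes were at 6.37% and 7.05%. In the lists of E47-ER binding it was at 7.12% (1 h), 6.98% (6 h) and 8.38% (A12), where the highest other chromosomes were at 6.19%, 7.14% and 6.22%. This pattern was noticed in the data, and its cause was not tested.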
